A study of Mus musculus with 8 samples.

Results

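Genes of the cytosolic ribosomal proteins were examined for peaks of PRDM16 binding in the embryonic mouse cortex. PRDM16 is a DNA-binding protein with zinc fingers and a PR domain, made by the radial glia that serve as neural stem cells there. The members were protein-coding genes of RefSeq whose symbols start with Rpl or Rps followed by a digit, together with Rplp0, Rplp1, Rplp2 and Rpsa, without the Rps6k kinase genes. This gave 91 of 21887 protein-coding genes, 56 of the large subunit and 35 of the small subunit by symbol. Of the 91, 77 encode the standard ribosomal proteins and 14 do not. The 14 are paralogues, retrogenes and pseudogene-like entries, and Rps19bp1, which encodes a protein that binds a ribosomal protein.

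Peaks came from chromatin immunoprecipitation and sequencing (ChIP-seq) of whole cortex at E15.5, with 2 wild-type (WT) and 2 conditional knockout (cKO) libraries. WT embryos were Prdm16 flox/flox. The cKO embryos were Emx1Ires-Cre; Prdm16flox/flox, so floxed alleles are common to both groups and the cKO adds Cre from the Emx1 locus. That locus is active in the dorsal telencephalic lineage, so other cells of a whole-cortex lysate, such as interneurons and vessel cells, keep Prdm16. Nothing in the labels says whether the replicates were separate embryos or pools, so the p-values measure only the spread between these libraries.

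Ribosomal proteins and ribosomal RNA form the small and large subunits that translate messenger RNA. Their genes are among the most highly transcribed in dividing cells, are short, and have compact promoters next to CpG-rich sequence. Their messenger RNAs usually begin with a C and a run of pyrimidines, the TOP tract, through which the mTOR pathway controls their translation. Promoters of this class are bound by ETS-family factors, YY1 and SP or KLF factors.

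Peaks numbered 13852 and 26652 in the WT lists and 4553 and 3088 in the cKO lists. The lists give no read totals, so a background solved from the peaks stood in for depth. The genome-wide background, in overlapping fragments per base, was 0.777 and 1.78 in WT and 2.95 and 2.52 in cKO (replicate 1 first, here and below). The 5th percentile of the folds was 4.22 and 3.58 for WT and 3.29 and 3.37 for cKO, and so lower in the cKO lists. The lowest single fold, 1.35, was in WT replicate 2. Fold enrichment here is the authors' value for each peak, the summit over its local background. The WT libraries share a library identifier and the cKO libraries share another, so genotype and whatever that identifier marks cannot be told apart.

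The promoters below are shown because a peak summit lay in or next to each of them. Rplp0 was the one member with a summit in all 4 lists. Rpl27 had one in both WT lists and in cKO replicate 1, and Rpl10a in 1 list of each genotype. Rpl37 and Rps10 had a summit in both cKO lists and no WT list. Among the 70 members with a known start site, Rpl34 had the highest fold of the start-site peaks found in a WT list alone. Each sequence is from RefSeq (GRCm38.p6, the mm10 build), 5′ to 3′ on the gene's strand, and holds 250 bases before the annotated start site and the first 20 of the transcript. Capitals mark matches, on either strand, to CCGGAA (ETS), AAGATGGC (YY1), GGGCGG (SP and KLF), TATAAA (the site of TBP), TTGGCA (NFI), CAGCTG (E-box) and TCTCGCGA. In the order printed they are chr5:115559217-115559486 (plus strand), chr11:101441995-101442264 (plus), chr17:28328221-28328490 (plus), chr15:5116363-5116632 (plus), chr17:27635225-27635494 (minus) and chr3:130730379-130730648 (minus).
Rplp0: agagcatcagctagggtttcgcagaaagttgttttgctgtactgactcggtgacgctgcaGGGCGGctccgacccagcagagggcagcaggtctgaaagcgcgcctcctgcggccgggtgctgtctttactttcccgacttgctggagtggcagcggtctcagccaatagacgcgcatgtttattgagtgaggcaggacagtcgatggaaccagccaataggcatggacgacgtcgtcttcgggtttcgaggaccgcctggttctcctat
Rpl27: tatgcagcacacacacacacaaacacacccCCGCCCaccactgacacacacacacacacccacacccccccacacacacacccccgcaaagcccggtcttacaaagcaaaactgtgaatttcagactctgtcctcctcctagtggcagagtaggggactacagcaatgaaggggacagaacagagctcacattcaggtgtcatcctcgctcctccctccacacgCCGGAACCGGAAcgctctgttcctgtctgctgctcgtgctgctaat
Rpl10a: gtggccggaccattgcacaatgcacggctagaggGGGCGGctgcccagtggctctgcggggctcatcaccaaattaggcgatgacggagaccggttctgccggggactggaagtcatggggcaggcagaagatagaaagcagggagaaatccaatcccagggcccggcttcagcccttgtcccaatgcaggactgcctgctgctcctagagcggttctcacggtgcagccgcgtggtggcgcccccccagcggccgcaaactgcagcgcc
Rpl37: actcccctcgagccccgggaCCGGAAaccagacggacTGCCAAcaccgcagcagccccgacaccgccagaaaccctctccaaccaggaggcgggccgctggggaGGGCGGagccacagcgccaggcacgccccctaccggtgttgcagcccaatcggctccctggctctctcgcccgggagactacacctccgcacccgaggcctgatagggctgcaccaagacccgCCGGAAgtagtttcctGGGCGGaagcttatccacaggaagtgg
Rps10: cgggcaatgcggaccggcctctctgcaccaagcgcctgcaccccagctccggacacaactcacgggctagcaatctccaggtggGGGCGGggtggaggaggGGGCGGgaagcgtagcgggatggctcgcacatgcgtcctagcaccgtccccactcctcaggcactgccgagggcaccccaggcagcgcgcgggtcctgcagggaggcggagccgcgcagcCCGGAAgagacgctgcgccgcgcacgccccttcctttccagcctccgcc
Rpl34: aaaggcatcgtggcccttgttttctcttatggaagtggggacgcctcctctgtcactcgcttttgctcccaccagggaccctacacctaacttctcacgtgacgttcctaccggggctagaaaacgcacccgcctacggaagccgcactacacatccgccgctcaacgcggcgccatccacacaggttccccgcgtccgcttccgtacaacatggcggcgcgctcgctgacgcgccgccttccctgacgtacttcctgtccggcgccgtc

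Counting all listed peaks, the mean number of ribosomal protein genes with a peak did not fall from WT to cKO. Over all protein-coding genes, whose median length is greater, it did. Among genes no longer than the longest member, the shares with a peak were 6.43% and 11.5% in WT and 8.74% and 6.35% in cKO. A member counted when a peak summit lay in the gene or within 1 kb of either end. That held for 8 and 16 of the 91 members in WT and for 18 and 16 in cKO. Of all protein-coding genes, 17.1% and 26.5% had such a summit in the WT lists and 13.9% and 10.1% in the cKO lists. The members' shares were 8.79% (Wilson 95% interval 4.52 to 16.4) and 17.6% (11.1 to 26.7) in WT, and 19.8% (12.9 to 29.1) and 17.6% (11.1 to 26.7) in cKO. Members thus lay below the share of all genes in both WT lists and above it in both cKO lists.

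The mean was 12 ± 5.66 members over the WT lists and 17 ± 1.41 over the cKO lists (SD, n = 2 each), and the groups touched, as WT replicate 2 equalled cKO replicate 2. An exact two-sided permutation test over the 4 libraries gave p = 0.667. With 2 against 2, p cannot go below 0.333. Over all protein-coding genes the mean went the other way, from 4772 ± 1445 genes in WT to 2628 ± 600 in cKO (exact permutation p = 0.333). When only peaks of at least 5-fold enrichment were kept, the members numbered 8 and 9 in WT and 7 and 7 in cKO, which turned the direction. At that limit all protein-coding genes went from 14.8% and 18.2% to 5.61% and 4.60%, and the genes no longer than the longest member from 4.96% and 6.30% to 3.57% and 2.66%. Whether members and other genes differed in their change was not tested. Intervals cover counting error only.

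**Figure D1:**
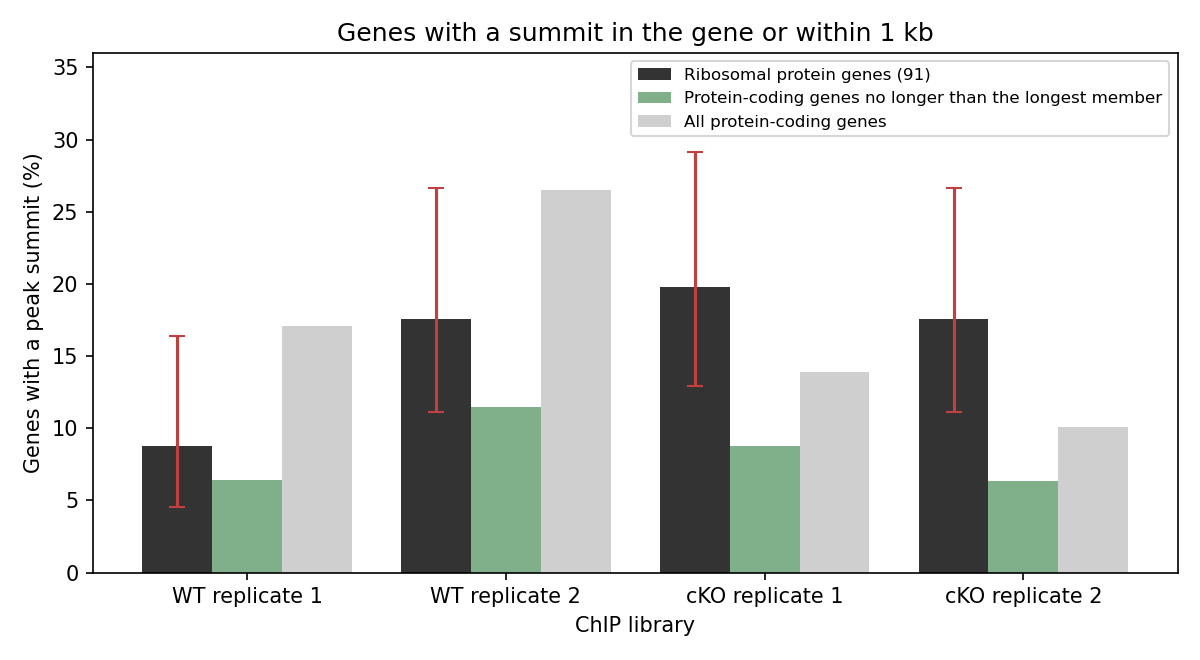
Percentage of genes with a peak summit in the gene or within 1 kb, by ChIP library, for the 91 ribosomal protein genes (dark, with Wilson 95% intervals), for protein-coding genes up to the length of the longest member (green) and for all protein-coding genes (grey). The dark bars run from 8.79% to 19.8%, below the grey bars in both WT lists and above them in both cKO lists.

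Length matters for this comparison, since a long gene offers more room for a summit. Members had a median length of 3175 bp (374 to 16779), against 17169 bp for all protein-coding genes. Among the 10796 protein-coding genes no longer than the longest member, 6.43% and 11.5% had a summit in WT, and 8.74% and 6.35% in cKO. Their median length was 5554.5 bp, still above that of the members. The members' share was above this background in all 4 lists. This background lay inside the members' interval in both WT lists and below it in both cKO lists.

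A window of the same size at every start site takes gene length out of the window. A gene with several start sites still had several windows and counted if any held a summit. Start sites were on hand for 70 of the 91 members and 17492 protein-coding genes. A summit within 1 kb of the start was found at 6 and 9 of the 70 members in the WT lists and at 11 and 7 in the cKO lists (exact two-sided permutation p = 0.667). The members' shares were 8.57% (3.99 to 17.5), 12.9% (6.91 to 22.7), 15.7% (9.01 to 25.99) and 10% (4.93 to 19.2) in that order of libraries. The background was 6.48%, 12.1%, 8.96% and 6.48%. The background lay inside the members' interval in both WT lists and in cKO replicate 2, and just below it in cKO replicate 1, so at this window the members were not clearly apart from other genes.

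As a share of each list, ribosomal protein genes took more of the cKO peaks. Their windows held 9 of the peaks of WT replicate 1, which is 0.0650% of the list (0.0342 to 0.123), and 17 of WT replicate 2, or 0.0638% (0.0398 to 0.102). They held 19 peaks of cKO replicate 1, or 0.417% (0.267 to 0.651), and 16 of cKO replicate 2, or 0.518% (0.319 to 0.840). The groups did not overlap, and the mean share was 7.27 times as high in cKO (exact two-sided permutation p = 0.333, the smallest possible). The cKO lists were the shorter, and the counts of these summits gave an exact permutation p of 0.667. The members' shares moved together with other properties of the lists. Summits in the windows of all protein-coding genes made up 54.1% and 54.7% of the WT lists and 70.7% and 70.4% of the cKO lists. Summits within 1 kb of any start site made up 8.53% and 8.81% of the WT lists and 33.3% and 34.3% of the cKO lists. Of those start-site summits, 0.508% and 0.383% lay at members in WT and 0.725% and 0.660% in cKO, a ratio of means of 1.55 (exact permutation p = 0.333).

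**Figure D2:**
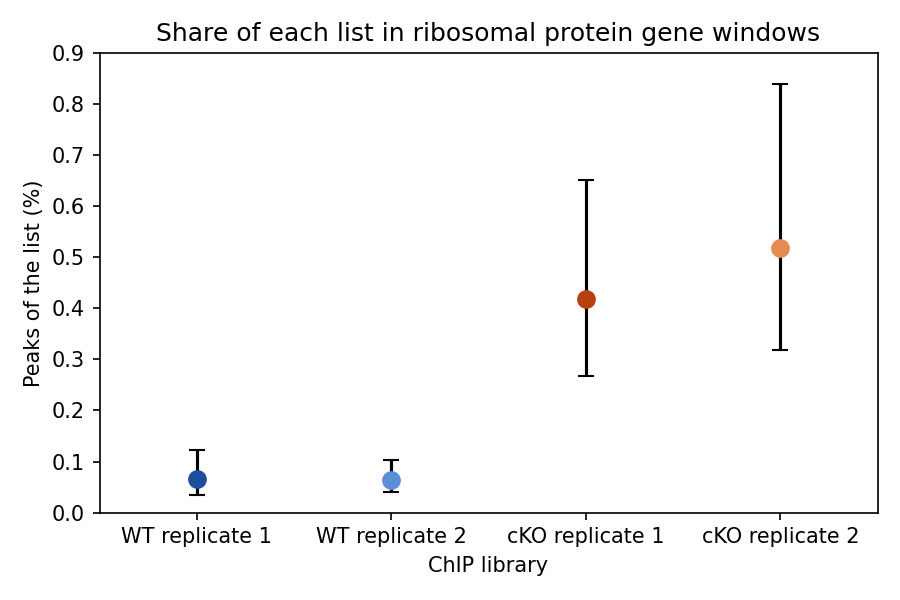
Peaks whose summit lay in a ribosomal protein gene or within 1 kb, as a percentage of each list, by ChIP library, with Wilson 95% intervals as bars. The WT points lie at 0.0650% and 0.0638% and the cKO points at 0.417% and 0.518%.

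Most members had no peak in any library, as was so for most protein-coding genes. A summit was missing from all 4 lists at 56 of the 91 members, or 61.5%. The background was 63.2% of all protein-coding genes and 79.7% of those no longer than the longest member. Of the 35 with a summit (background 36.8% and 20.3% for at least 1 list), 20 had one in 1 list, 8 in 2 lists, 6 in 3 lists and 1 in all 4. For at least 2 lists, which held for 15 members, the background was 20.6% and 8.95%. For all 4 lists it was 2.74% and 0.945%. Members with a summit numbered 20 of the 56 large subunit symbols and 15 of the 35 small subunit symbols. Of the 77 standard ribosomal protein genes 32 had a summit, and of the 14 other members 3 did: Rpl7l1, Rpl34-ps1 and Rps19bp1. No member had a summit in both WT lists and no cKO list, which allows a share of up to 3.30% (3 of 91). The background for that pattern was 8.27% of all protein-coding genes, and 2.56% of genes no longer than the longest member, of which the second lies under that limit. The opposite pattern, both cKO lists and no WT list, held for 4 members (Rpl22, Rpl37, Rps10 and Rps14), against 1.84% of all genes and 1.57% of the shorter ones. At least 1 WT list and no cKO list held for 10 members, where the background was 19% of all genes and 8.87% of the shorter genes. At least 1 cKO list and no WT list held for 14, against 7.35% and 6.61%. Another 11 had a summit in both genotypes, against 10.5% and 4.82%.

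**Figure D3:**
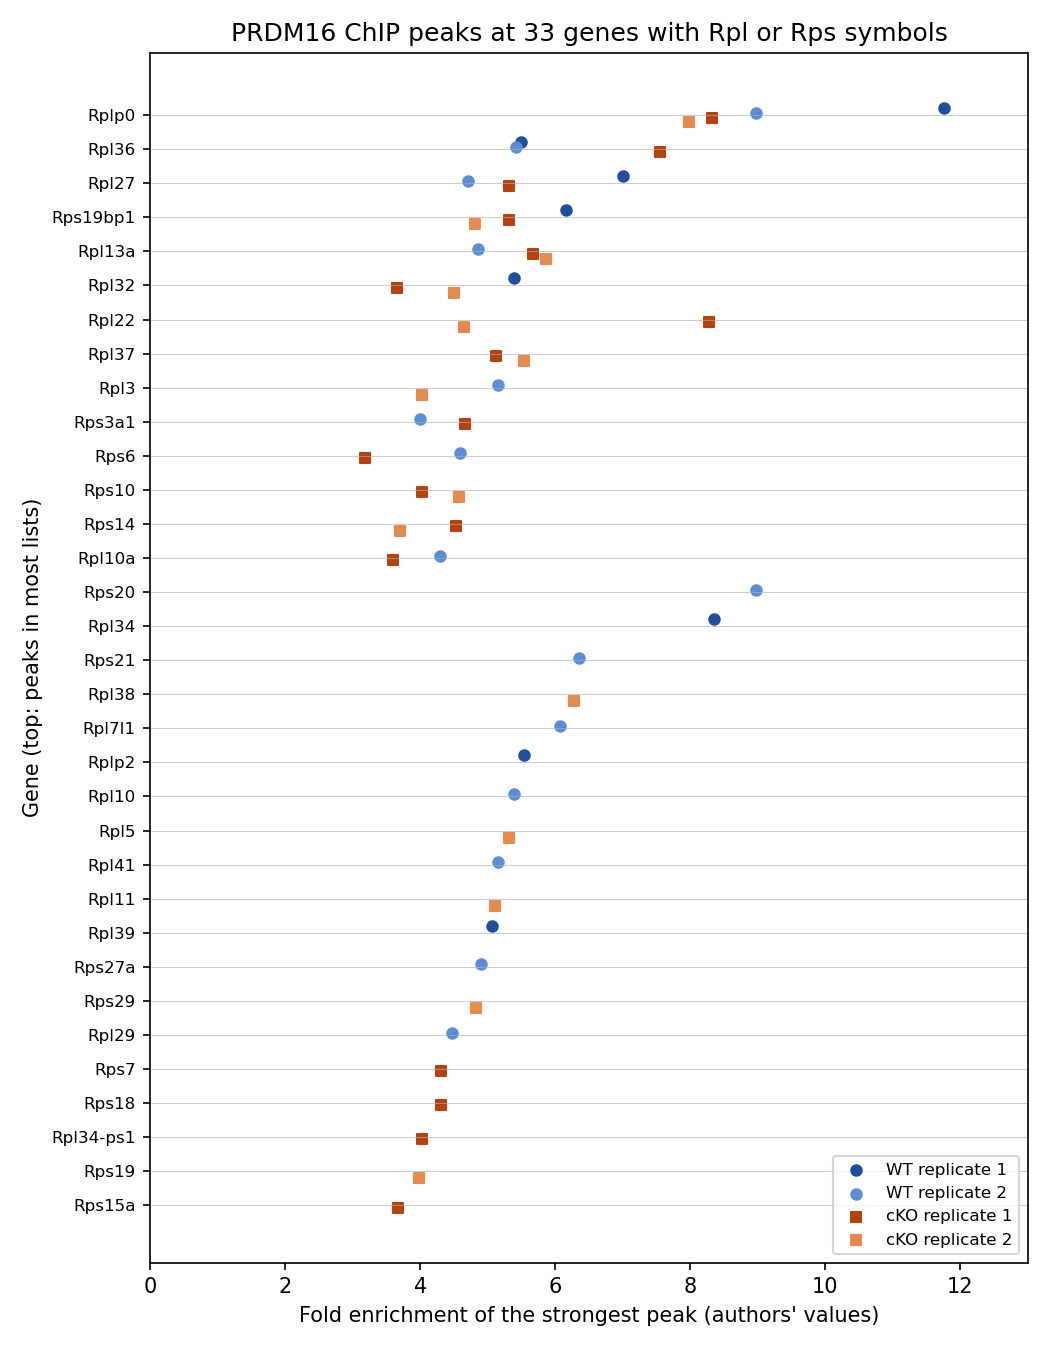
Fold enrichment of the strongest peak at 33 of the 35 members with a summit, by ChIP library (circles WT, squares cKO, no symbol where no peak was listed), with members found in most lists at the top. Rplp0 alone has 4 symbols, and its highest value, 11.8, is the highest of all.

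Rplp0 carried the highest fold of any member in each of the 4 lists, equalled by Rps20 in WT replicate 2. It encodes P0, which anchors the stalk of the large subunit where elongation factors bind. The gene lies at chr5:115559467-115563729 on the plus strand. Its fold was 11.8 and 8.97 in WT and 8.32 and 7.98 in cKO. The summits held 21 and 33 overlapping fragments in WT, over a local background of 0.871 and 2.79, and 63 and 49 in cKO, over 6.70 and 5.26. All 4 summits lay upstream of the start site, at -168, -100, -140 and -159 bp in that order, within the promoter printed above. The peak ranked 1963 and 3928 in the WT lists, in the top 14.2% and 14.7%, and 192 and 164 in the cKO lists, in the top 4.22% and 5.31%. The site was thus listed in both genotypes. Both WT folds were above both cKO folds, as were the median folds over all peaks (6.43 and 5.40 against 4.68 and 4.96). Folds of different lists do not measure a change in binding.

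Rpl22 had the next highest fold after Rplp0 in cKO replicate 1. It encodes an RNA-binding protein of the large subunit that has a paralogue, Rpl22l1, which had no summit in any list. Its peaks reached 8.28 and 4.64 in cKO, and none was listed in WT. Unlike most members, its summit lay far from the start, 7403 and 7419 bp downstream of it and 953 and 937 bp inside the upper end of the gene (chr4:152324436-152334082). The cKO summits were 16 bp apart.

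Large subunit genes found in 3 lists were Rpl27, Rpl36, Rpl13a and Rpl32. At Rpl27, a core large subunit gene at chr11:101442245-101445596, the fold was 7.01 and 4.70 in WT and 5.32 in cKO replicate 1. Its summits lay 38, 52 and 92 bp upstream of the start, next to the adjoining pair of CCGGAA matches printed above at -26 and -20. At Rpl13a, whose protein also has a role in silencing of inflammatory transcripts, the fold was 4.86 in WT replicate 2 and 5.67 and 5.87 in cKO replicates 1 and 2. Those 3 summits, 347, 352 and 346 bp upstream of the start, were within 6 bp of each other.

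Rpl32 had 5.39 in WT replicate 1 and 3.66 and 4.50 in cKO replicates 1 and 2, with summits 36, 144 and 95 bp outside its upper end. Rpl36 had summits at both ends. One site lay inside the gene, 887, 882 and 866 bp from its upper end, with 5.49 and 3.17 in WT and 7.55 in cKO replicate 1. Outside the lower end lay a peak of 5.41 in WT replicate 2 and another of 3.71 in cKO replicate 1, which did not overlap. The windows of 2 neighbours also hold these summits, Lonp1 those inside and Micos13 those outside, so the Rpl36 peaks cannot be assigned to Rpl36 alone.

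Large subunit genes found in 2 lists were Rpl22, Rpl37, Rpl3 and Rpl10a. Rpl37 had 5.13 and 5.54 in cKO and nothing in WT, with summits 183 and 202 bp upstream of the start. Those summits also lay in the body of Card6, a neighbouring gene. Rpl3, whose protein reaches towards the peptidyl transferase centre, had 5.15 in WT replicate 2 and 4.03 in cKO replicate 2 at its upper end. Rpl10a, a protein of the L1 stalk, had 4.29 in WT replicate 2 and 3.596 in cKO replicate 1, with summits 49 and 59 bp upstream of the start. Of these 4 genes, then, Rpl22 and Rpl37 were listed in cKO alone and the other two in both genotypes.

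Small subunit genes in more than 1 list included Rps3a1, Rps6, Rps10 and Rps14. Rps6, whose protein is phosphorylated downstream of mTOR, had 4.59 in WT replicate 2 and 3.18 in cKO replicate 1. Those peaks did not overlap, with summits 795 bp apart on opposite sides of the start. Rps3a1 had 4.003 in WT replicate 2 and 4.66 in cKO replicate 1, with overlapping peaks 24 and 41 bp upstream of the start.

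Rps10 and Rps14 were listed in the cKO alone. Rps10, a gene mutated in some patients with Diamond-Blackfan anaemia, had 4.03 and 4.57 in cKO replicates 1 and 2, with summits at -169 and +19 bp from the start. Rps14, a gene lost in a form of myelodysplastic syndrome, had 4.53 and 3.70, with summits 37 and 190 bp outside its lower end. A signal below the threshold in WT would not appear in the lists. Rps19bp1 had 5.23 in WT replicate 1 and 5.32 and 4.81 in the cKO replicates at a site 244 to 263 bp inside its lower end, which is the downstream end. WT replicate 1 held another peak upstream of its start, with 6.16.

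Of the 20 members found in 1 list, 10 were in a WT list and 10 in a cKO list. The 5 with the highest fold were Rps20 (8.97, WT replicate 2), Rpl34 (8.36, WT replicate 1), Rps21 (6.35, WT replicate 2), Rpl38 (6.27, cKO replicate 2) and Rpl7l1 (6.07, WT replicate 2). Rps20 lay 170 bp outside its upper end, and its summit had 33 fragments over a background of 2.79. Rpl34 had 14 fragments over 0.795, 86 bp upstream of the start, and was not listed in WT replicate 2. Rpl38, whose protein is known for its part in translation of Hox messenger RNAs, had its summit 55 bp upstream of an annotated start inside the gene. The other WT members were Rpl39 and Rplp2 in replicate 1 and Rpl10, Rpl29, Rpl41 and Rps27a in replicate 2. Other cKO members were Rpl34-ps1, Rps7, Rps15a and Rps18 in replicate 1 and Rpl5, Rpl11, Rps19 and Rps29 in replicate 2. Rpl5 and Rpl11, which bind Mdm2 when ribosome assembly is disturbed, were thus each found in 1 cKO list, with 5.32 and 5.10.

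The median fold of the peaks at ribosomal protein genes was below that of the whole list in each library. It was 5.54 and 5.15 in WT and 4.31 and 4.82 in cKO, against 6.43, 5.40, 4.68 and 4.96 over all peaks of those lists. In the more significant part of the list, above its middle rank, lay 3 of the 9 member peaks of WT replicate 1, 6 of 17 in WT replicate 2, 7 of 19 in cKO replicate 1 and 8 of 16 in cKO replicate 2. The members' summits rested on 8 to 21 overlapping fragments in WT replicate 1, 11 to 33 in WT replicate 2, 14 to 63 in cKO replicate 1 and 13 to 49 in cKO replicate 2. The local background at these summits had a median of 0.947 and 2.50 in WT and 4.08 and 3.47 in cKO. A fold below the 5th percentile of WT replicate 1 was found at 0 of 9 and 2 of 17 member peaks in WT and at 8 of 19 and 3 of 16 in cKO. Over whole lists that share was 4.20% and 19.4% in WT and 32.7% and 24.3% in cKO. The genome-wide background and the 5th percentile of the folds moved with genotype, and their part in the counts was not tested.

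With lists cut to equal length, the 3088 most significant peaks of each, the contrast was wider. Members with a summit then numbered 1 and 0 in WT and 10 and 16 in cKO (exact two-sided permutation p = 0.333). In such lists 4.84% and 4.76% of all protein-coding genes had a summit in WT and 9.4% and 10.1% in cKO, and 0.824%, 0.704%, 5.88% and 6.35% of those no longer than the longest member. The WT lists hold many stronger peaks elsewhere, so this comparison is of ranks within a list and not of binding.

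Where 2 lists had a summit at the same member, the peaks usually overlapped. Both cKO lists had a summit at 9 members, and at 9 of 9 the peaks overlapped, with a median of 19 bp between summits. Both WT lists had one at 3 members, with 3 overlapping and a median of 14 bp. Between genotypes, WT replicate 1 overlapped cKO replicate 1 at 5 of 5 members and cKO replicate 2 at 3 of 3. WT replicate 2 overlapped cKO replicate 1 at 6 of 8 and cKO replicate 2 at 3 of 4, and Rps6 was among the exceptions. Over the genes no longer than the longest member, the peaks overlapped at 91.7% of genes with a summit in both cKO lists, 87.9% of those in both WT lists and 67.3% to 72.1% of those in a list of each genotype. Over all protein-coding genes those shares were 89.5%, 88.5% and 48.6% to 54.8%, and with so few members no difference from them was tested. The background for a summit in both cKO lists was 6.2% of all protein-coding genes and 3.67% of the shorter ones, and for both WT lists 14.1% and 4.21%.

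Most member summits lay near a gene start in both genotypes. For the 40 of 61 at members with a known start, 33 were within 1 kb of it and 25 within 250 bp, and 27 of the 33 were upstream. These are 82.5% and 62.5%, against 65.6% and 39.3% of the summits at genes no longer than the longest member and 29.0% and 17.9% at all protein-coding genes, each summit counted once for each gene. The difference was not tested, and members are shorter than either set. Within 250 bp lay 4 of 7 in WT replicate 1, 6 of 10 in WT replicate 2, 9 of 13 in cKO replicate 1 and 6 of 10 in cKO replicate 2. Another protein-coding gene had the summit in its own window for 11 of the 61 peaks, and for 4 of them a start site of that gene was within 1 kb. Among the 44 members whose window met no other gene's window, 4 and 5 had a summit in WT and 10 and 9 in cKO, which is 9.09%, 11.4%, 22.7% and 20.5%. Of the 6684 genes with such a window and no longer than the longest member, 5.24% and 8.95% had one in WT and 5.97% and 4.19% in cKO.

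**Figure D4:**
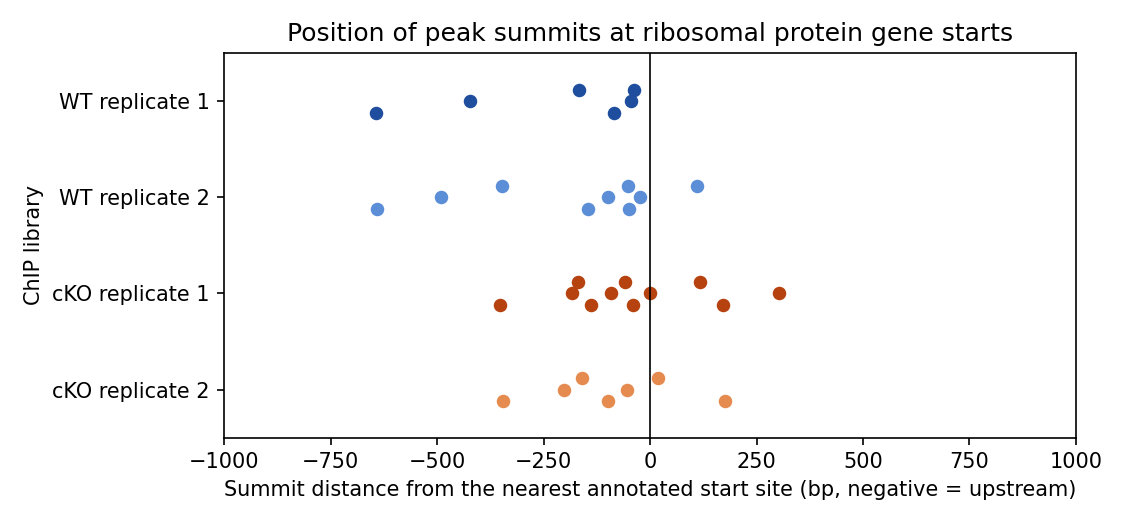
Distance in bp from the nearest annotated start site to each peak summit within 1 kb, by ChIP library, for the 70 members with a known start (negative is upstream). Of 40 summits at these members 25 fall within 250 bp of the start, in WT and cKO lists alike.

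Member promoters carried some sequence matches more often than other promoters. Over the 300 bases of the RefSeq entry, CCGGAA was in 47.1% of the 70 member promoters and 19.1% of 17492 promoters of protein-coding genes. TCTCGCGA was in 14.3% against 1.53%, AAGATGGC in 8.57% against 3.21% and GGGCGG in 57.1% against 46.3%. TATAAA was as common as elsewhere (12.9% against 13.3%), while TTGGCA (8.57% against 13.4%) and CAGCTG (7.14% against 15.1%) were less common. A cytosine followed by 4 pyrimidines began within 10 bases of the start in 57.1% against 30.2%. Of the 24 member promoters whose gene had a summit in any list, 15 held CCGGAA, and of the 46 without one, 18 did. For GGGCGG the counts were 17 of 24 and 23 of 46, and for TCTCGCGA 4 of 24 and 6 of 46. For AAGATGGC they were 4 of 24 and 2 of 46, and for TTGGCA 3 of 24 and 3 of 46. TATAAA was about equal, with 3 of 24 and 6 of 46. CAGCTG went the other way, with 0 of 24 and 5 of 46, as did the TOP tract, with 13 of 24 and 27 of 46. Without a summit the share with AAGATGGC was 4.35%, near the 3.21% of all promoters. Median GC content was 57.3% with and 57.0% without a summit, and 56.3% over all promoters. These are letter matches in a window and not binding sites, and no test was made.

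Related genes were counted in the same way. Of 78 mitochondrial ribosomal protein genes, whose products form the separate ribosome of mitochondria, 5 and 11 had a summit in the WT lists and 15 and 15 in the cKO lists. These were 6.41% and 14.1% in WT and 19.2% and 19.2% in cKO. The background over all protein-coding genes was 17.1%, 26.5%, 13.9% and 10.1%. A higher share in cKO was thus not particular to the cytosolic ribosomal protein genes. None of the 78 was in both WT lists and no cKO list, and 3 were in both cKO lists and no WT list. Over all protein-coding genes those patterns held for 8.27% and 1.84%. Mrps28 had 12.1 and 7.69 in WT and 5.46 and 6.83 in cKO, Mrps33 had 11.96 and 8.26 in WT and 4.20 in cKO replicate 2, and Mrps27 had 9.02 in WT replicate 2 and 6.16 and 5.31 in cKO. Of 18 other genes with TOP messenger RNAs, 3 and 4 had a summit in WT (16.7% and 22.2%) and 4 and 4 in cKO (22.2% and 22.2%). Of the 18, 0 were in both WT lists and no cKO list and 1 was in both cKO lists and no WT list. They included Tpt1 (6.54, 3.29 and 5.07 in the WT replicates and cKO replicate 1) and the elongation factor genes Eef1a1 (6.28, 4.18 and 3.95 in the same libraries) and Eef1b2 (4.04 and 6.03 in the cKO replicates). Of 30 ribosome biogenesis genes, 2 and 5 had a summit in WT and 4 and 6 in cKO. Both WT lists and no cKO list held 1 of them, the methyltransferase gene Fbl (5.14 and 3.39), and both cKO lists and no WT list held 3. The highest folds were at Utp3 (5.52 in WT replicate 2 and 9.67 in cKO replicate 2), Rrn3 (7.32, WT replicate 1) and Eif6 (7.04, WT replicate 2). Among ribosomal components that the symbol rule misses, Rack1 had a peak, with 4.22 in WT replicate 1, and Fau had none.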

How the data were processed

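PRDM16 ChIP-seq peaks of 2 WT and 2 cKO cortex libraries at E15.5 were used. The 4 input libraries were not analysed here. Tools named by the submitters' processing notes are cutadapt, Bowtie2 2.2.8, FastQC and MACS2 2.1.1, with the mm10 build. Their settings and the control used for each ChIP are not given there. The authors deposited 1 narrowPeak list per library, so replicates were not pooled. Its fold enrichment is a ratio computed by the authors, and the authors' significance is −log10 of the p-value and of the q-value. The deposited score column is 10 times the latter, rounded down, and was not used further.

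Only peaks on assembled chromosomes were used, which left out 12 to 37 lines a list. A summit is the peak start plus the deposited offset, and coordinates count from 1. Genes came from RefSeq (GRCm38.p6, the mm10 assembly). Start sites and promoters came from the RefSeq promoter table, which matched 70 of 91 members. For the other 21, distances are to the nearer annotated gene end. Where a gene had several starts, its outermost was used for motifs.

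The summit pileup and local background were solved from each fold and p-value, with fold as pileup plus 1 over background plus 1 and a Poisson p. A whole-number pileup met the listed −log10 p within 0.0001 for 99.89% to 99.96% of peaks, leaving out 5 and 32 very significant peaks of WT replicates 1 and 2. The smallest background of a list stands in for its depth, which could not be checked against read totals. The solver and the counting were tested on simulated data.

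Libraries were compared with exact two-sided permutation tests (Python 3.11.15, numpy 2.4.6, scipy 1.17.1). Members were named if a summit was in at least 2 lists, then the 5 with the highest fold among those in 1 list. The values of 2 members with a summit are not reported here, though the counts include them. Others are named by list only, except Rpl5 and Rpl11, chosen after their values were seen. The members and lists were chosen with earlier results of these data known. The share of each list, the solved background, the TOP tract count and the shares of overlap, position and low folds over other genes were added after the data were seen.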

Additional observations from a re-analysis of the deposited data

How the results depend on the processing

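Of 106 values recomputed under alternatives, 85 kept their direction and side of the threshold or stayed within 1.5 times, 16 moved, 3 reversed and 2 lost their direction. The 85 include the replicate-block values, whose differences are the same by construction. No alternative reached 0.05 in an exact permutation test, which the design cannot do. The WT minus cKO difference in members with a summit was -5.0. With peaks of at least 5-fold it turned to 1.5 members and 2.0 summits, and the difference in members with a start-site summit, -1.5 in the report, became 0.0. Under the other settings that kept all libraries the start-site difference was -5.5 to -1.0. Leaving out 1 library at a time gave -9.0 to -1.0 members, -8.5 to -0.5 summits, -3.5 to 0.5 start-site members and -0.4538 to -0.3529 percentage points of the list. The start-site difference was 0.0 without WT replicate 1 and 0.5 without cKO replicate 1.

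Members in both cKO lists and no WT list, 4 in the report, numbered 1 with the gene body only, 2 at 5-fold and 3 to 5 under the other settings that kept all libraries. Those in both WT lists and no cKO list, 0 otherwise, numbered 2 with 5 kb on either side. Those in all lists, 1 otherwise, numbered 0 with the gene body only, 2 with 5 kb, 0 with lists of equal length and 0 among the 44 members whose window met no other gene window, of which 26 had no summit. Leaving out 1 library gave 4 kinds of range: 0 to 7 members in every WT and no cKO list, 6 to 10 in every cKO and no WT list, 1 to 3 in every list and 59 to 63 in none. Fewer lists to satisfy raise such counts by construction. The set of 77 standard ribosomal proteins, an alternative chosen after seeing the data, gave -4.5 members.

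With the replicate block the difference in members is -5.0 by construction, and only the p-value can change. The exact permutation p was 1.0 for members, summits and start sites and 0.5 for the share of the list, the smallest that 2 pairs allow. The labels link WT and cKO replicates by number only. The correlation of the replicate deviations was -0.0835 over all protein-coding genes, which cannot show whether the replicates were paired. The lowest summit pileup at a member was 8 and 11 fragments in WT and 14 and 13 in cKO. Sites below the listing threshold are not in the lists.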

Other observations

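Ribosomal protein genes have many processed pseudogene copies. Of 309 annotated pseudogenes with Rpl, Rps or Rplp symbols, 4 and 7 had a summit inside or within 1 kb in WT replicates 1 and 2, which is 1.29% and 2.27%. None had one in either cKO list, which allows up to 0.971% each. No summit lay inside such a pseudogene in any list. Over all 10429 annotated pseudogenes, 0.738% and 1.30% had a summit in the WT lists and 0.230% and 0.211% in the cKO lists, so the 0 in cKO is not apart from that background. No difference was tested, and no source used here says how reads with several matches were handled.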
